A study of Rattus norvegicus with 9 samples.

Results

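Serum microRNAs (miRNAs) of rats late in a course of rotenone were compared with those of rats early in it. The comparison used 6 of the 9 libraries of the series, chosen by their titles: 3 of the late group (LPD) and 3 of the early group (EPD). Both groups were wild-type male Wistar rats that received rotenone, which blocks complex I of the mitochondrial respiratory chain, by daily intraperitoneal injection at 2 mg per kg per day. EPD serum was taken after 10 days and LPD serum after more than 40 days, at a terminal stage, and the ages of the animals are not stated. The model rests on a systemic poison given to whole animals, so serum may hold miRNAs from any tissue that rotenone reached. Time on rotenone, age at sampling and terminal illness cannot be told apart in these groups. The 3 Control libraries stayed out of the fit, and the labels give them the same treatment wording as the other groups. Of the 567 miRNAs in the deposited table, 124 had at least 1 count in all 6 libraries, and fold changes were taken from these.

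miRNAs are short RNAs that guide Argonaute proteins to messenger RNAs, and the bases called the seed decide most of the pairing. Cells release them in vesicles, in protein complexes and on lysis, and in serum they are sheltered from nucleases. Blood cells, platelets, vessel wall and liver are the main known sources, and several miRNAs mark 1 tissue, such as miR-122 for hepatocytes. Serum holds no cells, so the number of releasing cells and the amount released per cell cannot be told apart. Levels here are CPM, counts divided by the library size over the fitted miRNAs after scaling by TMM factors, unless CPM of the library total is named. They are relative levels, not exact shares of a library and not amounts per volume of serum.

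The mature sequences below, from RefSeq (build GRCr8), are those of families and groups described further on, and of single miRNAs with a small p. They were not ranked by size of fold change. Of the 124 miRNAs, 109 had a sequence in that table, among them 28 of the 33 that passed the test described below. Capitals mark the seed, bases 2 to 8 from the 5′ end. The first set is the miR-29 family, all lower in LPD, which shares 1 seed.
miR-29a-3p: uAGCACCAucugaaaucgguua
miR-29b-3p: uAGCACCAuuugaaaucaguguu
miR-29c-3p: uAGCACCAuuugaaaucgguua
The second set is part of the let-7 family, which shares a seed as well. The first 3 were higher in LPD, and let-7g-5p and let-7i-5p are shown because they did not pass.
let-7a-5p: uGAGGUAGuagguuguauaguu
let-7d-5p: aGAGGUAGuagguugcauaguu
let-7e-5p: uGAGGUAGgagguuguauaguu
let-7g-5p: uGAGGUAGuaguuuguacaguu
let-7i-5p: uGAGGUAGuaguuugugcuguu
The third set is the miR-10 pair, both higher in LPD. In this table miR-10b-5p starts 2 bases further along than miR-10a-5p, so the capitals cover different letters of nearly the same RNA.
miR-10a-5p: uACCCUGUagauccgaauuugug
miR-10b-5p: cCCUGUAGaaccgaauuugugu
The fourth set holds miRNAs that are abundant in epithelial cells, all lower in LPD.
miR-200c-3p: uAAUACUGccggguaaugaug
miR-203a-3p: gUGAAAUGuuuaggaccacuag
miR-205: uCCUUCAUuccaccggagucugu
miR-183-5p: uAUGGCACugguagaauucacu
miR-182: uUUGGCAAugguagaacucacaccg
The last set holds the 4 single miRNAs with the smallest p outside those families, of which miR-126a-5p was higher in LPD and the other three lower.
miR-140-3p: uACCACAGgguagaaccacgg
miR-125b-5p: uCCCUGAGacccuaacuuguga
miR-191a-5p: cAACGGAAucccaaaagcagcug
miR-126a-5p: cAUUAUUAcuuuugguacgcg

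The 2 groups differed in depth and in how many miRNAs were seen. EPD libraries held 1136537 to 1668807 counts and LPD libraries 132609 to 305019. The number of miRNAs with at least 10 counts was 302 ± 9.50 in EPD and 161 ± 18.7 in LPD (mean ± SD, n = 3 libraries each). The 10 most abundant miRNAs held 58.7% ± 2.41 of the counts in EPD and 67.3% ± 3.12 in LPD. Groups did not overlap in any of these measures, and each gave p = 0.1 by a two-sided exact permutation test, the smallest that 3 against 3 allows (adjusted p = 0.133 over 4 measures). LPD libraries lacked low counts: 3, 9 and 39 miRNAs had 1 to 9 counts, against 127 to 155 in EPD. From the miRNAs at 0, and taking the EPD profile as given, the LPD libraries were estimated to stand for 4681 to 11788 independent molecules, at 11.2 to 44.8 counts each. EPD libraries came to 665932 to 866123 molecules, at 1.71 to 2.29 counts each. On the TMM scale 3 such molecules stand for 250 to 786 CPM in LPD, and levels below that are poorly measured there. Pairs of libraries correlated in log2 CPM by 0.943 to 0.972 within EPD, by 0.870 to 0.888 within LPD and by 0.777 to 0.838 across the groups, over the 124 miRNAs. The SD over libraries was larger in LPD for 94 of the 124. A haemolysis index, which sets miR-451-5p of red cells against miR-23a-3p as a log2 ratio, gave -3.00 ± 1.44 in EPD and -3.00 ± 0.40 in LPD (exact permutation p = 1). By library it was -1.35, -3.63 and -4.01 in EPD and -3.05, -3.37 and -2.58 in LPD. Every LPD library lay between EPD 1 and the other EPD libraries, so the equal means rest on EPD 1. With miR-191a-5p as the reference the index ran from -8.32 to -4.50 in EPD and from -3.81 to -2.07 in LPD, with no overlap. miR-191a-5p was itself among the miRNAs lower in LPD. The part that depth, detection and spread had in the results below was not tested beyond the alternatives named there.

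Of the 124 miRNAs, 33 (26.6%) passed an adjusted p of 0.05 in edgeR's quasi-likelihood test. In LPD 15 of them (12.1% of the 124) were higher and 18 (14.5%) lower. With library totals in place of TMM factors the split was 13 higher and 25 lower. The median log2 fold change over all 124 was 0.22 with TMM and -0.01 with library totals, a shift of 0.236, and single values below move by about as much. Fold changes of the called miRNAs ran from 0.95 to 4.40 (log2) among the higher and from -3.03 to -1.05 among the lower. In 67 of the 124 (54.0%) the LPD and EPD libraries did not overlap, and all 33 called miRNAs were among them. LPD lay above EPD in 33 of those 67 (26.6% of the 124) and below in 34 (27.4%). At an unadjusted p of 0.05, 53 of the 124 (42.7%) passed. Across 17 alternatives, 7 of the 15 higher and 13 of the 18 lower passed in every one that could fit them.

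**Figure D1:**
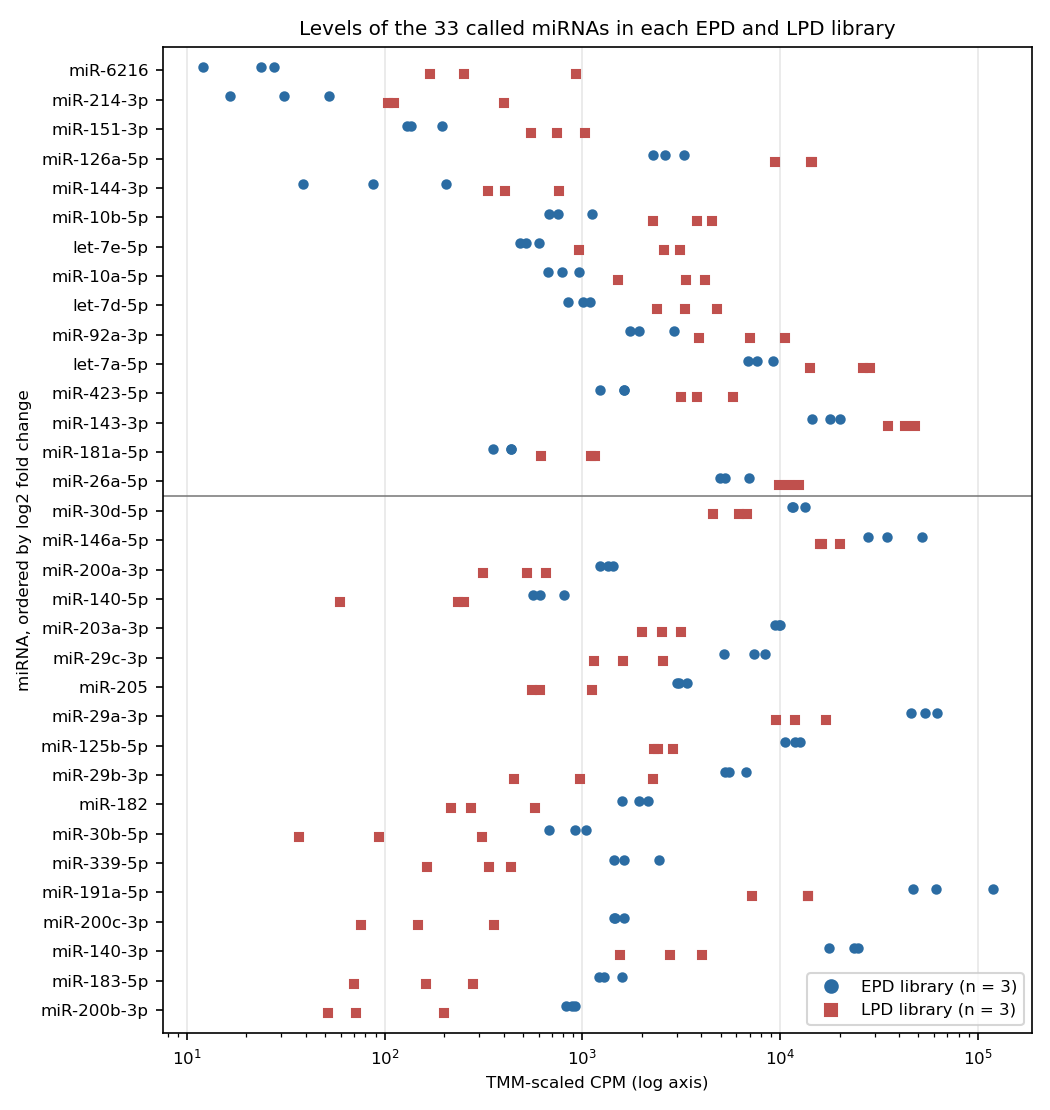
TMM-scaled CPM (log axis) of the 33 called miRNAs in each of the 3 EPD libraries (blue circles) and 3 LPD libraries (red squares), ordered by log2 fold change, with a line between the 15 higher and the 18 lower in LPD. In every row the 2 groups of points are separate, and miR-183-5p, miR-200b-3p and miR-200c-3p near the foot lie at 51.9 to 356 CPM in LPD.

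The epithelial miRNAs made up the largest group on the lower side. Of 13 in that list 10 were fitted, of which 7 were lower in LPD and 0 higher, beside 14.5% and 12.1% over all 124. The median log2 fold change was -1.99 against 0.22 over all 124. Leaving out each library in turn kept the count of lower members at 7, or 8 without LPD 3, and 1 member passed as higher without LPD 1. miR-203a-3p, a regulator of keratinocyte differentiation, stood at 9412, 9921 and 9978 CPM in EPD and at 1996, 2529 and 3140 CPM in LPD. All 3 LPD libraries lay far under the narrow EPD range, a log2 fold change of -1.94 ± 0.29 (SE, edgeR adjusted p = 2.07e-04). miR-205, expressed in basal epithelium, stood at 3376, 3013 and 3068 CPM in EPD and at 1121, 613 and 555 CPM in LPD. Its log2 fold change was -2.04 ± 0.46 (edgeR adjusted p = 0.00290).

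The miR-200 family holds epithelial cells in their state by repressing the ZEB factors. miR-200c-3p stood at 1469.7, 1618 and 1441 CPM in EPD and at 75.7, 356 and 148 CPM in LPD, a log2 fold change of -2.97 ± 0.53 (edgeR adjusted p = 7.67e-04). miR-200b-3p had a log2 fold change of -3.03 ± 0.56 and miR-200a-3p of -1.42 ± 0.41. The call of miR-200a-3p was lost when all 9 libraries entered the fit (edgeR adjusted p = 0.0672). The family's miR-141-3p lay lower in every LPD library without passing, at -1.36 ± 0.53 (edgeR adjusted p = 0.0680), and the fifth fitted member, miR-429, gave -0.61 ± 0.43 (adjusted p = 0.247). From the miR-183 cluster, known from sensory epithelia, miR-183-5p stood at 1280.2, 1589 and 1209 CPM in EPD and at 162, 70.1 and 281 CPM in LPD. Its log2 fold change was -3.00 ± 0.50 (edgeR adjusted p = 5.22e-04), and that of its neighbour miR-182, an miRNA that red cells carry as well, was -2.42 ± 0.48. The third member, miR-96-5p, was counted 49, 19 and 11 times in EPD and 0 times in LPD, and was not fitted. Not all of the list moved alike: miR-375-3p, of pancreatic islets and mucosa, was at 238 ± 20.8 CPM in EPD and 548 ± 248 CPM in LPD (log2 1.20 ± 0.53, edgeR adjusted p = 0.0984). The LPD means of miR-183-5p, miR-200b-3p and miR-200c-3p lay under 250 CPM, so the direction of their change is better measured than its size. Those of miR-182 (356 CPM), miR-200a-3p (498 CPM) and miR-205 (763 CPM) lay within the 250 to 786 CPM of 3 estimated molecules in LPD. Of the lower epithelial miRNAs, only miR-203a-3p lay above that range.

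All 3 members of the miR-29 family were lower in LPD. These miRNAs repress collagens and other matrix genes, and leukocytes and vessel wall express them. miR-29a-3p stood at 45688, 62317 and 53775 CPM in EPD and at 9542, 11835 and 16998 CPM in LPD. Its highest LPD library was below its lowest EPD library by more than the range within either group (log2 -2.08 ± 0.38, edgeR adjusted p = 8.34e-04). miR-29c-3p stood at 6984 ± 1630 and 1769 ± 717 CPM (log2 -1.98 ± 0.37). miR-29b-3p stood at 5821 ± 786 and 1231 ± 935 CPM (log2 -2.25 ± 0.50), and lost its call without LPD 2 (edgeR adjusted p = 0.0577). As printed above, miR-29c-3p differs from miR-29a-3p by C10U alone, counted from the 5′ end, and how reads of such near-identical miRNAs were assigned is not known here. Summed over the shared seed, a choice made after the data were seen, the family fell from 64203 ± 8751 to 16343 ± 5240 CPM (log2 -1.97 ± 0.38, edgeR adjusted p = 3.40e-04).

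Among the other lower miRNAs, miR-140-3p had the smallest p of all 124. Known from cartilage and platelets, it stood at 24813, 23726 and 17631 CPM in EPD and at 4014, 2781 and 1548 CPM in LPD. The LPD values were lower 7.92-fold by the fit (log2 -2.99 ± 0.36, edgeR adjusted p = 3.89e-05). Its partner from the same hairpin, miR-140-5p, stood at 657 ± 129 and 182 ± 106 CPM, the latter under the level of 3 estimated molecules. It was called lower too (log2 -1.84 ± 0.57, edgeR adjusted p = 0.0237). That call was lost without EPD 1 (adjusted p = 0.0678), without EPD 2 (0.0544), with edgeR's filterByExpr (0.0542) and with no filter (0.0690).

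miR-125b-5p, expressed in neurons, vessel wall and progenitor cells, stood at 10595, 11849.8 and 12644 CPM in EPD and at 2411, 2289.9 and 2874 CPM in LPD. The libraries of each group lay close together (log2 -2.21 ± 0.27, edgeR adjusted p = 3.89e-05). miR-191a-5p, carried by platelets and leukocytes and often used as a reference in serum, stood at 61376, 46677 and 118474 CPM in EPD and at 13751, 13780.0 and 7229 CPM in LPD. EPD 3 was high among the EPD libraries, and the groups did not overlap (log2 -2.70 ± 0.47, edgeR adjusted p = 6.79e-04). Its hairpin neighbour miR-425-5p was at 669.7 ± 28.1 and 899 ± 96.8 CPM (log2 0.42 ± 0.37, edgeR adjusted p = 0.349). miR-339-5p, of platelets, was lower by the fit as well, at -2.55 ± 0.48. Its LPD mean of 313 CPM lay within the 250 to 786 CPM of 3 estimated molecules.

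The miR-30 family, broadly expressed in kidney, heart and endothelium, was mixed. Of its 5 fitted members 2 were lower and 0 higher, beside 14.5% and 12.1% over all 124. The median log2 fold change was -1.05, or -0.31 over the 4 with a mean of at least 1000 CPM. Without LPD 2, 1 was lower and the median was -0.63. miR-30d-5p stood at 11518, 13315 and 11609 CPM in EPD and at 6216, 6811 and 4562 CPM in LPD (log2 -1.05 ± 0.27, edgeR adjusted p = 0.00683). miR-30b-5p fell from 877 ± 185 to 147 ± 144 CPM, the latter under the level of 3 estimated molecules (log2 -2.54 ± 0.63), and lost its call without LPD 2 (edgeR adjusted p = 0.0655). miR-30a-5p and miR-30e-5p gave 0.57 and 0.43, and neither passed.

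miR-146a-5p, a brake on innate immune signalling, stood at 27714, 52048 and 34746 CPM in EPD and at 15856, 16239 and 20109 CPM in LPD. Its log2 fold change was -1.13 ± 0.36 (edgeR adjusted p = 0.0260). The call was lost without EPD 2 (adjusted p = 0.140), without LPD 1 (0.0932) and without LPD 2 (0.0910). With miR-125b-5p it made up the 2 lower of 9 fitted in the inflammation list, where 0 were higher. Over all 124, 14.5% were lower and 12.1% higher. miR-155-5p, induced in activated macrophages, was at 905 ± 175 and 1436 ± 437 CPM and did not pass (edgeR adjusted p = 0.210). miR-21-5p, induced in injury and fibrosis, was at 43939 ± 10548 and 103356 ± 58601 CPM (log2 1.23 ± 0.48, edgeR adjusted p = 0.0684), with LPD 3 the highest library at 170899 CPM. DESeq2 gave it an adjusted p of 0.0341.

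On the higher side, the let-7 family, which represses growth genes and is found in most adult tissues, had 3 higher and 0 lower among 9 fitted, beside 12.1% and 14.5% over all 124. Its median log2 fold change was 0.87 against 0.22 over all 124, and 7 of the 9 values were positive under each of the 3 scalings. let-7a-5p stood at 7677, 6862 and 9226 CPM in EPD and at 26266, 28524 and 14184 CPM in LPD (log2 1.54 ± 0.33, edgeR adjusted p = 0.00237). let-7d-5p stood at 984 ± 127 and 3495 ± 1224 CPM (log2 1.83 ± 0.44). let-7e-5p stood at 536 ± 60.7 and 2221 ± 1119 CPM (log2 2.05 ± 0.50). In each of these 3 the LPD 3 library was the lowest of its group and still above all EPD libraries. Without LPD 3, 6 of the 9 passed as higher and the median was 1.21.

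The other 6 let-7 members did not pass. let-7b-5p was at 1.17 ± 0.45 (log2), let-7c-5p at 0.87 ± 0.42 and let-7f-5p at 0.61 ± 0.29, with edgeR adjusted p of 0.0648, 0.116 and 0.116. let-7g-5p stood at 7685 ± 2179 and 6307 ± 1328 CPM (log2 -0.29 ± 0.30), and let-7i-5p at 23052 ± 5506 and 18431 ± 4189 CPM (log2 -0.32 ± 0.33). Both overlapped between the groups. By sequence, let-7e-5p differs from let-7a-5p by U9G, let-7d-5p by U1A and U16C, and let-7g-5p by G12U and U18C, all outside the seed. Summed over the seed, let-7 counts were 93300 ± 17390 CPM in EPD and 168464 ± 69748 CPM in LPD and did not pass (log2 0.85 ± 0.47, edgeR adjusted p = 0.150).

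Both miR-10 members, which lie in the Hox clusters and are abundant in endothelium, were higher in LPD. miR-10b-5p stood at 677, 1112 and 752 CPM in EPD and at 4522, 3785 and 2266 CPM in LPD (log2 2.06 ± 0.46, edgeR adjusted p = 0.00290). miR-10a-5p stood at 671, 956 and 792 CPM in EPD and at 3355, 4165 and 1511 CPM in LPD (log2 1.90 ± 0.48, edgeR adjusted p = 0.00682). LPD 3 was the lowest LPD library for both. The call of miR-10a-5p was lost without EPD 1 (adjusted p = 0.0553). Once the 2-base offset is taken up, the 2 printed sequences differ by U12A, counted in miR-10a-5p, so these counts too may share reads.

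miR-126a-5p, from an intron of the endothelial gene Egfl7, had the smallest p on the higher side. It stood at 2269, 3267 and 2616 CPM in EPD and at 14436, 14306 and 9414 CPM in LPD (log2 2.23 ± 0.29, edgeR adjusted p = 5.33e-05). The other arm of that hairpin, miR-126a-3p, was at 10409 ± 3364 and 17246 ± 5578 CPM (log2 0.73 ± 0.34, edgeR adjusted p = 0.109), and passed without EPD 2 (adjusted p = 0.0442) or without LPD 3 (0.0270). The difference between the arms was not tested. miR-143-3p, of smooth muscle, stood at 14542, 17857 and 20047 CPM in EPD and at 43015, 48239 and 35255 CPM in LPD (log2 1.27 ± 0.35, edgeR adjusted p = 0.0104). It lost its call without EPD 1 (adjusted p = 0.0822) and without LPD 2 (0.05002). Its cluster partner miR-145-5p lay in the other direction, at 1755 ± 42.9 and 776 ± 632 CPM (log2 -1.17 ± 0.60), and did not pass (edgeR adjusted p = 0.130). Over the endothelium and vessel wall list, 5 of 17 fitted were higher and 4 lower, beside 12.1% and 14.5% over all 124. The list median was 0.22 beside 0.22 over all 124. Without EPD 1 the higher count was 2 and the median -0.03, and without LPD 2 the counts were 3 and 3.

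Further miRNAs passed on the higher side with more dependence on single libraries. miR-92a-3p, of the miR-17/92 cluster and abundant in red cells, was at 2197 ± 632 and 7171 ± 3325 CPM (log2 1.71 ± 0.38, edgeR adjusted p = 0.00290). It missed the threshold without LPD 2 (0.0577) and with no filter on low counts (0.0576). miR-423-5p, a broadly expressed miRNA, was at 1486 ± 222 and 4247 ± 1355 CPM (log2 1.51 ± 0.40, edgeR adjusted p = 0.00835). It missed without EPD 1 (0.0678), without LPD 2 (0.0511) and with no filter (0.0572). miR-26a-5p, also broadly expressed, was at 5733 ± 1082 and 11087 ± 1281 CPM (log2 0.95 ± 0.27, edgeR adjusted p = 0.0120). It missed without EPD 2 (0.0544), EPD 3 (0.0624) or LPD 2 (0.0620), with edgeR's filterByExpr (0.0741) and with no filter (0.148).

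Some calls rested on low levels in EPD. miR-6216 stood at 12.1, 23.8 and 27.5 CPM in EPD and at 169, 923 and 252 CPM in LPD (log2 4.40 ± 0.85, edgeR adjusted p = 0.00111), which in LPD is near the level of 3 estimated molecules. miR-151-3p, of platelets, stood at 136, 129 and 195 CPM in EPD and at 548, 1034 and 748 CPM in LPD (log2 2.34 ± 0.50, edgeR adjusted p = 0.00222). Its other arm, miR-151-5p, was counted 60, 53 and 110 times in EPD and 0 times in LPD. miR-144-3p of red cells (log2 2.18), miR-181a-5p of lymphocytes (1.23) and miR-214-3p of fibroblasts (2.62) passed in 10, 4 and 7 of 16 alternatives. All 3 calls ended without EPD 2 (edgeR adjusted p = 0.0778, 0.0867 and 0.123, in that order), without EPD 3 (0.102, 0.0946 and 0.0624) and without LPD 2 (0.0938, 0.0667 and 0.0694). Without EPD 1 those of miR-181a-5p (0.194) and miR-214-3p (0.183) ended, and without LPD 3 that of miR-181a-5p (0.0526). The replicate block ended those of miR-181a-5p (0.0670) and miR-214-3p (0.0888). The LPD means of miR-151-3p (777 CPM) and miR-144-3p (500 CPM) lay within the 250 to 786 CPM of 3 estimated molecules in LPD. That of miR-214-3p (206 CPM) lay under this range. A miRNA at low levels in EPD entered the fit only where every LPD library had counted it. The values of this paragraph were thus selected towards high levels in LPD.

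**Figure D2:**
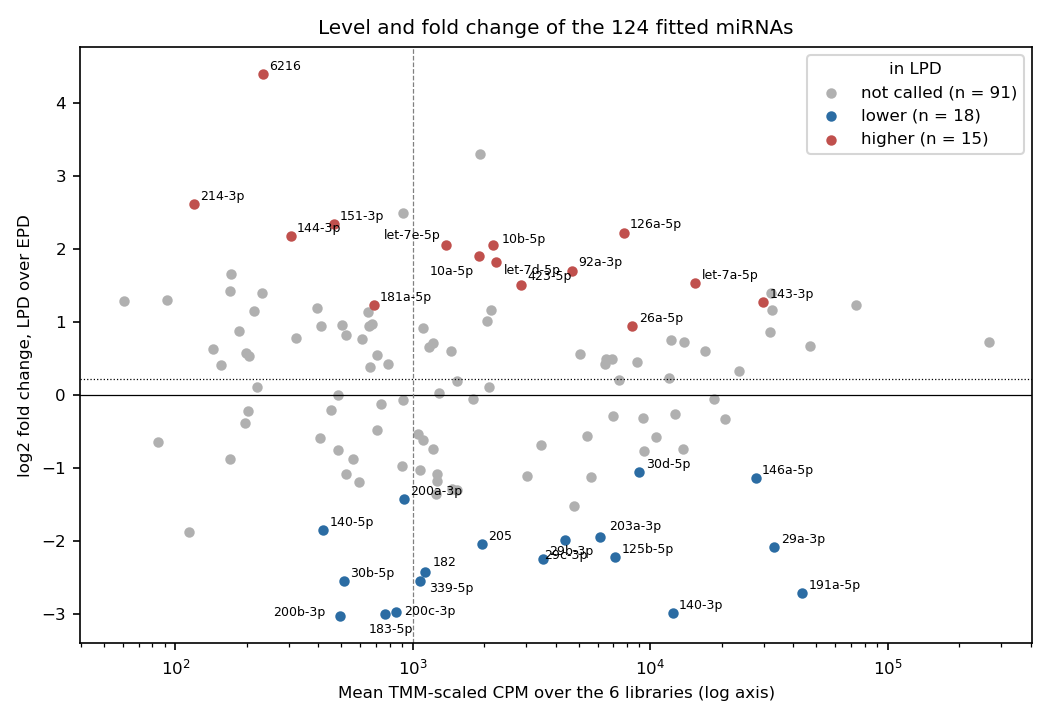
Log2 fold change (LPD over EPD) of the 124 fitted miRNAs against their mean TMM-scaled CPM over the 6 libraries (log axis), with called miRNAs in colour. The dotted line is the median of 0.22 and the dashed line 1000 CPM; 10 of the 15 higher and 12 of the 18 lower miRNAs lie at or above 1000 CPM.

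In the red-cell list 2 of 15 fitted miRNAs were higher in LPD and 2 lower, near the 12.1% and 14.5% over all 124, with a median of 0.11. With library totals the counts were 2 and 5 and the median -0.08. miR-16-5p was at 200994 ± 108926 CPM in EPD and 332194 ± 82398 CPM in LPD (log2 0.73 ± 0.61, edgeR adjusted p = 0.332). EPD 1, at 326335 CPM, lay inside the LPD range. miR-451-5p was at 1278 ± 1252 and 1308 ± 375 CPM (log2 0.03 ± 0.62), and its sign changed with the scaling. miR-486, also of red cells, stood at 36881, 9026 and 7237 CPM in EPD and at 51415, 67113 and 21287 CPM in LPD (log2 1.40 ± 0.71, edgeR adjusted p = 0.147). Without EPD 1 its log2 fold change was 2.37 (adjusted p = 0.00129).

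Of 15 fitted leukocyte miRNAs 2 were higher and 4 lower, beside 12.1% and 14.5% over all 124. Of these 4, 3 were the miR-29 family, and the list median was -0.05. The higher count was 1 without EPD 1 and 0 without EPD 2, EPD 3 or LPD 2, the lower count 2 without LPD 2, and the median 0.19 without LPD 3. miR-223-3p, of myeloid cells and platelets, was at 36239 ± 7080 and 57937 ± 15154 CPM (log2 0.68 ± 0.39, edgeR adjusted p = 0.172), and passed without LPD 3 (0.0423). miR-150-5p, of mature lymphocytes, was at 18829 ± 2810 and 18254 ± 5800 CPM (log2 -0.05 ± 0.33). Of 13 fitted platelet miRNAs 2 were higher and 3 lower, beside 12.1% and 14.5% over all 124. In the liver list 0 of 9 passed in either direction, beside 26.6% over all 124, and the median was 0.33. The hepatocyte miRNA miR-122-5p stood at 11349, 11364 and 39845 CPM in EPD and at 15841, 21239.6 and 41588 CPM in LPD (log2 0.33 ± 0.56, edgeR adjusted p = 0.635). The third library of each group was high, and without EPD 3 the value was 1.21 (adjusted p = 0.0444).

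Of 4 fitted miRNAs of the muscle list 0 passed in either direction, beside 26.6% over all 124, and 2 had the same pair of high libraries. miR-1-3p, of heart and skeletal muscle, stood at 68.5, 87.6 and 662 CPM in EPD and at 198, 561 and 3859 CPM in LPD (log2 2.49 ± 1.58, edgeR adjusted p = 0.259). miR-206-3p, of skeletal muscle, stood at 177, 314 and 3470.5 CPM in EPD and at 861, 368 and 7651 CPM in LPD. EPD 3 and LPD 3 were the highest of their groups for both. The same held for miR-1b, which differs from miR-1-3p by G17A and is not in the list. It stood at 131, 198 and 729 CPM in EPD and at 814, 1116 and 8532 CPM in LPD, without overlap. Its log2 fold change was 3.30 ± 1.23 (edgeR adjusted p = 0.0965), ran from 1.45 to 4.40 over the alternatives, and passed in 5 of 17. The log2 fold change of miR-1-3p was 0.47 without LPD 3 and 4.29 without EPD 3 (edgeR adjusted p = 0.732 and 0.0730). The replicate block gave 2.26 (adjusted p = 2.70e-04), the 1 alternative in which it passed. The others of the list, both arms of miR-378a, did not have EPD 3 as their highest EPD library. For miR-378a-3p LPD 3 was the highest LPD library, at 2977 CPM against 595 and 1741 CPM, and for miR-378a-5p it was not. miR-378a-3p was at 1823 ± 638 and 1771 ± 1192 CPM (log2 -0.05 ± 0.54), and miR-378a-5p at 179 ± 19.1 and 48.2 ± 36.8 CPM (log2 -1.87 ± 0.89, edgeR adjusted p = 0.116). miR-133a-3p, of muscle as well, was not fitted. It was counted 76, 73 and 494 times in EPD and 28, 0 and 71 times in the shallower LPD libraries. As CPM of the library total that was 45.5, 64.2 and 308 in EPD and 91.8, 0 and 535 in LPD. EPD 3 and LPD 3 were again the highest of their groups.

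**Figure D3:**
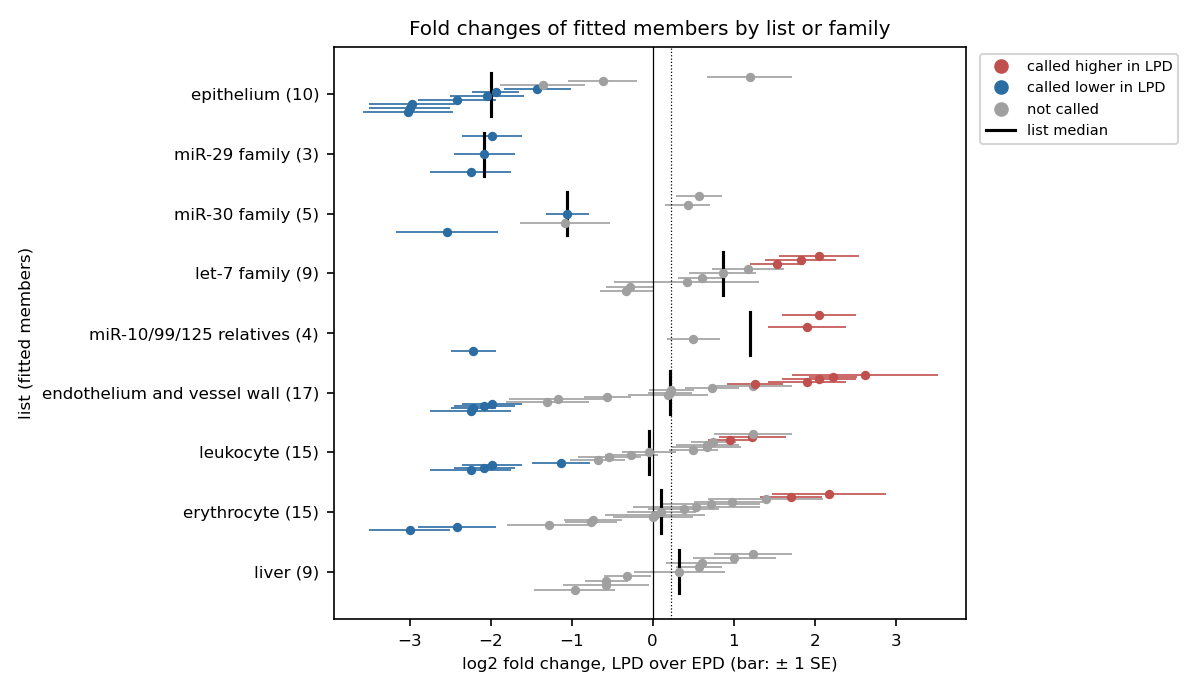
Log2 fold changes (LPD over EPD, ± 1 SE) of the fitted members of 9 lists, coloured by call, with each list's median as a bar and the median of all 124 as a dotted line. The epithelial list has its median at -1.99 and the miR-29 family at -2.08, while the leukocyte, erythrocyte and vessel wall lists spread to both sides.

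Of the list drawn from earlier Parkinson's disease work, 17 of 26 were fitted, 1 was higher and 6 lower, beside 12.1% and 14.5% over all 124, with a median of -1.08 against 0.22. The 6 were the 3 miR-29 members, miR-30b-5p, miR-146a-5p and miR-205, and so are not separate from the groups above. Without LPD 2, 3 were lower, and without EPD 1, EPD 2 or EPD 3, 0 were higher. Few brain miRNAs could be measured. Of 20 in that list 3 were fitted. Of the 14 counted in all EPD libraries 8 had no LPD count, beside 146 of 384 (38.0%) over all miRNAs. These 8 had EPD means of at most 27.4 CPM of the library total. Over all miRNAs, 47.7% of those at 10 to 100 CPM in EPD and 80.8% of those under 10 CPM had no LPD count. miR-124-3p, of neurons, had 2 counts in EPD 2 and 0 in the 5 others. miR-9a-5p, of neural progenitors, was counted 51, 19 and 10 times in EPD and 0, 0 and 18 times in LPD. As CPM of the library total that was 30.6, 16.7 and 6.24 in EPD and 0, 0 and 136 in LPD. The LPD 3 value lay under the 254 CPM of 3 estimated molecules in that library. miR-7a-5p, which targets alpha-synuclein mRNA, was at 817 ± 167 and 589 ± 84.9 CPM (log2 -0.47 ± 0.39, edgeR adjusted p = 0.330). miR-34a-5p, a target of p53, was counted 573, 1191 and 893 times in EPD and 0, 0 and 12 times in LPD. miR-210-3p, induced in hypoxia, was counted 525, 452 and 722 times in EPD and 31, 0 and 0 times in LPD. Neither could be fitted, and both were lower in every LPD library also as CPM of the library total: 343 to 1048 against at most 90.5 for miR-34a-5p, and 315 to 450.5 against at most 102 for miR-210-3p. No fold is given for either, since 3 estimated molecules stand for 254 to 641 CPM on that scale in LPD.

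Detection followed level. Of 384 miRNAs counted in all 3 EPD libraries, 146 (38.0%) had no count in LPD, and 0 showed the reverse. All 69 with an EPD mean of at least 1000 CPM of the library total were counted in every LPD library. Between 100 and 1000 CPM this held for 49 of 83 (59.0%), and between 10 and 100 CPM for 6 of 128 (4.69%). The highest without an LPD count was miR-324-5p, at 227 ± 87.9 CPM in EPD. It was followed by miR-664-2-5p at 97.1 ± 32.3 CPM, miR-324-3p at 93.8 ± 26.8 CPM and miR-672-5p at 82.0 ± 20.6 CPM. Those of the imprinted Dlk1-Dio3 cluster, miR-134-5p and miR-127-3p, stood at 64.6 ± 31.2 and 47.4 ± 10.6 CPM. Of the 30 members of this cluster in the table, 16 were counted in all EPD libraries, 13 of them had no LPD count, and 0 were fitted. The remaining 4 of the 10 highest, miR-93-3p, miR-99b-3p, miR-802-5p and miR-151-5p, lay between 50.4 and 61.3 CPM. In LPD, 3 estimated molecules stand for 254 to 641 CPM on this scale, but that estimate was itself made from the miRNAs at 0 and is no test of their absence. Cut to the LPD totals by rarefaction, EPD libraries kept 325 to 382 miRNAs with at least 1 count, against the 153 to 197 seen in LPD. Whether the missing miRNAs were lower in LPD serum or lost in sampling was not tested.

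**Figure D4:**
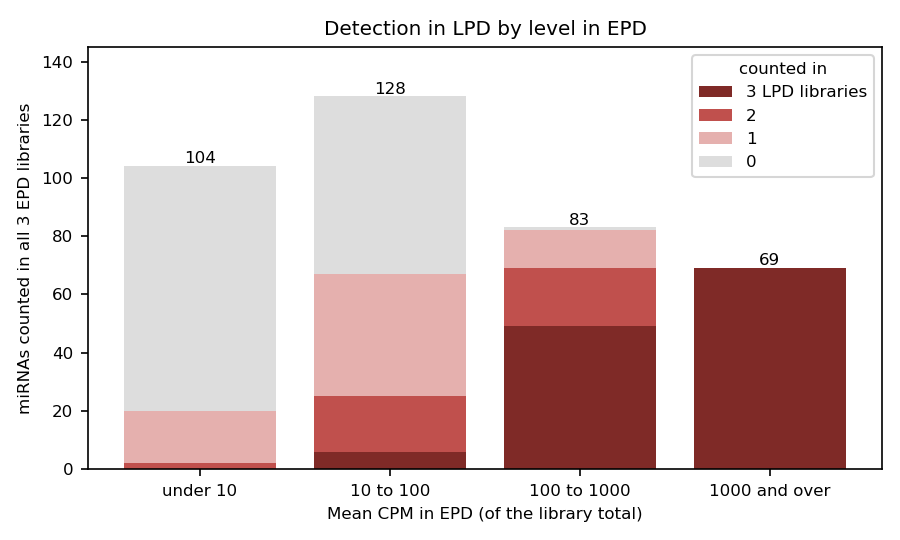
Number of miRNAs counted in all 3 EPD libraries, by their mean CPM of the library total in EPD, and shaded by the number of LPD libraries with a count. At 1000 CPM and over all 69 were counted in 3 LPD libraries, and under 10 CPM 84 of 104 were counted in none.

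Signs of the fold changes were set side by side for families, hairpin arms and genome neighbours. Among 16 groups of fitted miRNAs with a shared seed, 47 miRNAs in all, 9 groups had fold changes of 1 sign. Groups share reads where their members are near identical, so this is a description. Both arms of 7 hairpins were fitted, and 5 pairs had 1 sign. Over all 124, 68 fold changes were positive and 56 negative. Most seed groups hold only 2 miRNAs, and how often unrelated miRNAs would share a sign was not computed. Hairpins within 10000 bases on the same strand in RefSeq's annotation are given as examples, not as a count. Among them miR-183-5p and miR-182 were both lower, as were miR-29b-3p and its neighbours miR-29a-3p and miR-29c-3p. let-7a-5p, let-7d-5p and let-7f-5p, which lie together, were all positive. miR-191a-5p with miR-425-5p and miR-143-3p with miR-145-5p had opposite signs. Of 5 fitted in the miR-17/92 cluster 4 were positive, among them miR-92a-3p (1.71), and miR-19b-3p was negative (-1.03, not called). The median GC content was 44.5% in the 14 higher and 44.2% in the 14 lower miRNAs with a sequence, against 45.5% in all 109. Across these 109 miRNAs Spearman's rho between GC content and log2 fold change was -0.175, and -0.328 over the 66 of at least 1000 CPM. miRNAs of the same libraries are not independent replicates, and these values are given as a description.

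For reference, the Control libraries were set beside these groups on a scale common to all 9 libraries. miR-140-3p was at 36601 ± 19874 CPM in Control, 22000.2 ± 3861 in EPD and 2774 ± 1230.0 in LPD (mean ± SD, n = 3). miR-126a-5p was at 3726 ± 1526 CPM in Control, 2710.0 ± 505 in EPD and 12686 ± 2855 in LPD. let-7a-5p was at 8048 ± 1976, 7901 ± 1197 and 22932 ± 7691 CPM, and miR-10b-5p at 933 ± 62.2, 845 ± 232 and 3516 ± 1147 CPM in the same order. miR-200c-3p was at 1089.9 ± 933 CPM in Control, 1505 ± 94.7 in EPD and 193 ± 145.3 in LPD, the Control libraries being spread most widely. miR-143-3p differed from these in that its Control mean lay nearer to LPD, at 31450 ± 10231 CPM in Control, 17437 ± 2764 in EPD and 42062 ± 6516 in LPD. The same held for miR-181a-5p and, on a log scale alone, for miR-214-3p, 3 of the 33 called in all on that scale. miR-214-3p was at 90.3 ± 43.8 CPM in Control, 33.2 ± 17.9 in EPD and 206 ± 170 in LPD, nearer to EPD in CPM. No test was made with Control.

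**Figure D5:**
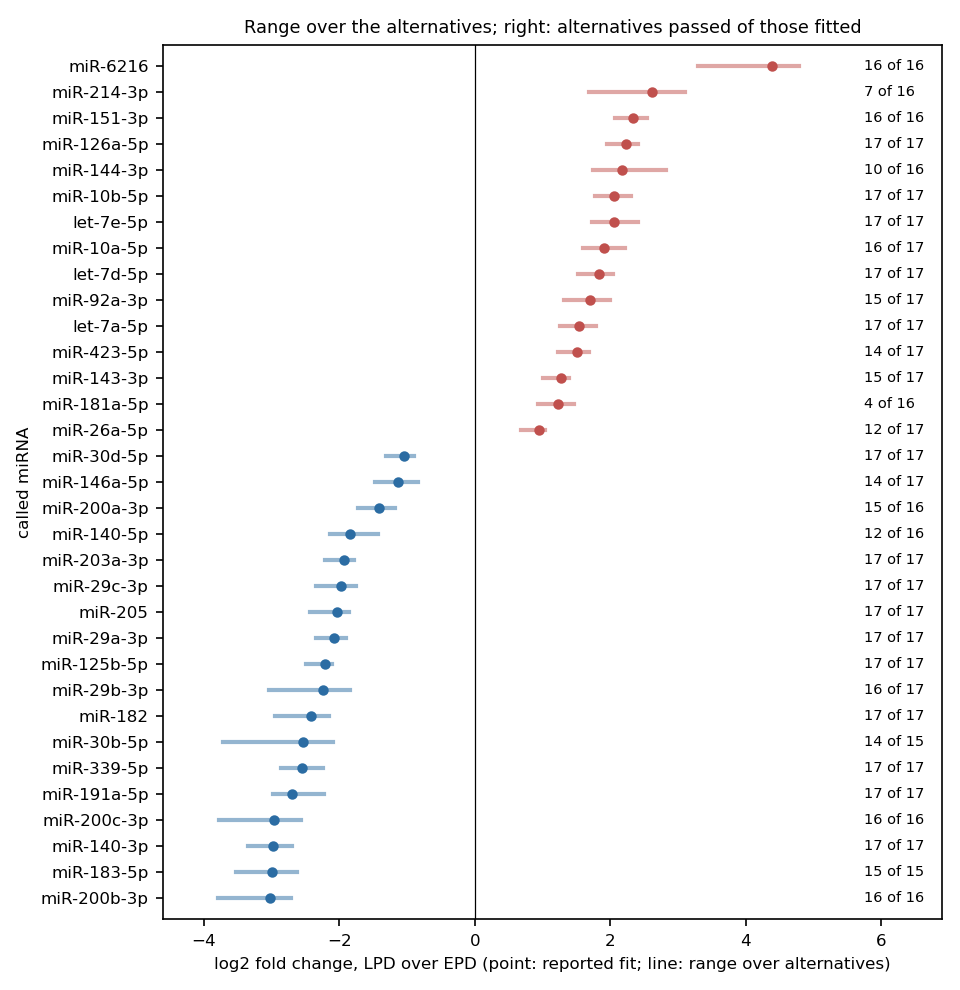
Log2 fold change (LPD over EPD) of the 33 called miRNAs in the reported fit (points) and its range over the alternatives (lines), with the number of alternatives passed of those that could fit the miRNA. No line crosses 0, and miR-181a-5p passed least often, in 4 of 16.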

How the data were processed

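Per the labels' protocols, a miRNeasy serum kit gave the small RNA and a QIAseq miRNA kit the libraries. The authors deposited whole-number counts per mature miRNA, and 0 values of the series table differed from the single files. The submitters' processing notes name the build mRatBN7.2. Aligner, counter, annotation and use of molecular identifiers: not given in the sources used here. PCR reads without such identifiers are not independent molecules, so depth limits cover counting error only.

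Groups came from the titles. With each count taken as independent, chi-square over degrees of freedom between 2 libraries was at least 342 in EPD and 30.7 in LPD. In LPD, at an estimated 11.2 to 44.8 counts per molecule, that value cannot tell whether libraries differed beyond the sampling of molecules. miRNAs counted in all 6 libraries were fitted with edgeR 4.0.16 in R 4.3.3 (robust quasi-likelihood, TMM, Benjamini-Hochberg over 124, threshold 0.05). Alternatives used DESeq2 1.42.0 and limma 3.58.1, other filters and scalings, and each library left out. The scripts were tested on simulated data. No source names separate animals per library, so p-values rest on the spread over these samples, which may be technical. Molecule numbers are those at which Poisson draws from the EPD profile would leave as many miRNAs at 0 as were seen.

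Named miRNAs are those called whose mean reached 1000 CPM without overlap of the groups, at most 15 per direction by p. Added to these were a fixed panel, up to 4 examples per list, the other arms, and the 10 highest in EPD without an LPD count. miR-375-3p, miR-96-5p, miR-425-5p, miR-145-5p, miR-19b-3p, miR-206-3p, miR-1b and miR-429 were chosen after their values were seen. The comparison and the 22 lists were chosen with earlier results of these data known. Sequences were matched by name to RefSeq (GRCr8), and none of its coordinates are given.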

Additional observations from a re-analysis of the deposited data

How the results depend on the processing

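The count of 33 called miRNAs was 67 (11 higher, 56 lower) with edgeR's filterByExpr, which tested 246, and 85 (9 higher, 76 lower) with no filter, which tested 511; both admit miRNAs at 0 in LPD. Of the 33, 28 and 26 were called there. It was 38 with library totals, 34 with RLE factors, 44 with DESeq2, 36 with limma-voom, 41 with counts per estimated molecule and 25 over the 72 miRNAs of at least 1000 CPM. Leaving out 1 library gave 27 (LPD 2) to 44 (LPD 3), and 26 to 44 where the filter was remade, an alternative chosen after seeing the data. The log2 fold change of miR-451-5p turned to -0.17 with filterByExpr, -0.26 with no filter and -0.08 with library totals, and ranged from -0.41 to 1.06 with a library left out. That of miR-122-5p turned to -0.12 without EPD 1 and ranged from -0.17 (without LPD 3) to 1.21 with a library left out. That of miR-150-5p turned to 0.026 over miRNAs of at least 1000 CPM and ranged from -0.25 to 0.19 (without LPD 3) with a library left out. The cause was not tested.

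The difference in detected miRNAs was -141 at 10 counts. At 1 count it was -269, and -177 with EPD cut to the LPD totals. The haemolysis index against miR-191a-5p differed by 3.13. With a library left out, total counts differed by -1419914 to -1153778, detected miRNAs by -151 to -132, the share of the top 10 by 7.37 to 10.3 percentage points and the index by -0.51 to 0.82.

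Pairing by replicate number was not established: deviations of same-numbered libraries correlated by 0.261, 0.038 and 0.277, and 5 of the 6 libraries correlated best with their own number. The replicate block gave 39 calls (16 higher, 23 lower), 31 of them among the 33, and ended those of miR-181a-5p (adjusted p = 0.0670) and miR-214-3p (0.0888).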
